A study of Mus musculus with 11 samples.

Results

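Dmd encodes dystrophin and was examined here as 1 gene of 49599 in a RefSeq gene table of the mouse. It was chosen by its number of peaks in a Smchd1 binding experiment: 18 sonication peaks lay in the gene or within 5 kb of it, more than for any other gene in the table, and the next gene, Eda, had 9. The count of sonication peaks and everything derived from the same list (positions, spacing, widths, density) are therefore given as a description, with no test. All 18 peaks overlapped the gene body itself.

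Dystrophin ties the actin cytoskeleton of muscle fibres to the laminin of the surrounding matrix through dystroglycan and the sarcoglycans, and its loss causes Duchenne muscular dystrophy in people and the mdx phenotype in mice. The gene spans a very large stretch of the X chromosome, nearly all of it intron, and has several promoters: full-length forms (Dp427) start at its 5′ end, and the short form Dp71, which is made in most tissues, including brain, starts near its 3′ end. Smchd1 is a non-canonical SMC family protein that accumulates on the inactive X of female cells, where it is known to be needed for the methylation of many CpG islands and for lasting silencing of part of the chromosome.

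Binding was mapped by chromatin immunoprecipitation and sequencing (ChIP-seq) in neural stem cell lines derived from C57BL/6 embryos at E14.5 and grown for up to 20 passages. An antibody to GFP was used for every pull-down from cross-linked chromatin, and the 11 libraries formed 6 groups. Sonicated chromatin (30 min) came from female lines only: 2 libraries from lines homozygous for the Smchd1-GFP fusion knock-in allele, 2 from wild-type lines without the tag and 2 of whole cell extract. Chromatin cut with micrococcal nuclease (MNase) came from 1 male and 1 female line of the knock-in genotype, 1 male and 1 female wild-type line, and 1 female whole cell extract. Each experiment was available as 1 list of peak positions with no value per library, so depth, the spread between replicates and the signal in wild-type cells were unknown for every peak described here. The identity of the cells could not be checked from positions, and the active and inactive X cannot be told apart in these lists.

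In mm10 the Dmd record runs from 82814664 to 85205050 on the X, over 2.39 Mb, and the gene is read from low to high coordinates. The sequence table has 2 annotated start windows for it, each reaching from 250 bases before a transcription start to 50 bases after it (RefSeq, GRCm38.p6, the assembly of mm10, plus strand). They are shown because neither overlapped a peak in either list, and because they differ in CpG content, the substrate of the methylation that Smchd1 is known for. Each reads 5′ to 3′ with the dinucleotide CG in capitals. The first is at chrX:82948620-82948919, 134 kb inside the record, and the second at chrX:85048045-85048344, 2.23 Mb inside it and near the 3′ end. The 5′ boundary of the record and any other start of the gene had no window, so peaks at other promoters were not looked for.
Dmd 5′ start: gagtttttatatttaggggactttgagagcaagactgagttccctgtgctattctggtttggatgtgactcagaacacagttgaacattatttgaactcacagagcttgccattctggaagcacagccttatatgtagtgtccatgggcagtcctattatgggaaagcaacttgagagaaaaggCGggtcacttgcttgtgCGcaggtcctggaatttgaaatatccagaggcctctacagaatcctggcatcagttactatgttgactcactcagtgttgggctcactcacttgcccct
Dmd 3′ start: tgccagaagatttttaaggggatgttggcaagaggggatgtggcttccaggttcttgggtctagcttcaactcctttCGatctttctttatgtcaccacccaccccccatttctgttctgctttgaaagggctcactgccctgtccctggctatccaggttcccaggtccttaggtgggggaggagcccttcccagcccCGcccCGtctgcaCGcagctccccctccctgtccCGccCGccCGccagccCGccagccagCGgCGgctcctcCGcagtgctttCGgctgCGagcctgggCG

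The 5′ window held 2 CG dinucleotides at a GC content of 45.7%, and the 3′ window held 14 at 62.7%. CG reads the same on both strands, and 94.6% of the 32851 start windows in the table contained at least 1. As many as 14 occurred in 36.3% of all windows and in 28.5% of the 1223 on the X, where the median was 7. The sonication peak nearest to the 5′ window lay 36.3 kb upstream of it, and the one nearest to the 3′ window lay 80.6 kb downstream. Missing a start was the usual case in this list: 2 of the 1223 start windows on the X (0.164%) overlapped a sonication peak.

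Sonication peaks were spread over almost the whole of Dmd, from 4.08% to 96.8% of its length counted from the 5′ end. The first, of 450 bp from 82911901 to 82912350, lay 97.2 kb inside the record, upstream of the first annotated start. The next was 165 kb further on, from 83077351 to 83077650, followed by one of 450 bp from 83115901 to 83116350. A tight group came next, with starts at 83235451, 83253301 and 83275651, separated by 17.6 and 22.1 kb. These 3 peaks were 300 to 450 bp wide and lay between 17.6% and 19.3% of the way along the gene.

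The widest peaks of the gene lay between 24.3% and 33.0% of its length. One of 900 bp ran from 83394751 to 83395650, then came a peak of 300 bp from 83463601 to 83463900. A second of 900 bp ran from 83583151 to 83584050, and 17.6 kb after it began the widest of all, 2250 bp from 83601601 to 83603850. This last one was the widest sonication peak on the X, where the next reached 1050 bp, and the second widest in the whole list of 2196. It alone held 22.1% of the bases that Dmd had in peaks.

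After a gap of 264 kb, a run of 4 peaks lay in the middle of the gene. They ran from 83867401 to 83868000, from 83919901 to 83920200, from 84001201 to 84001800 and from 84062401 to 84062700, and alternated between 600 and 300 bp in width. A pair of gene records nested in Dmd was close to this run: Gm46696, a predicted coding gene, was 4971 bp from the first of the 4 peaks, and the pseudogene Gm14769 was 624 bp from the last. The other 5 nested records, among them the testis gene Tsga8, had no peak within 5 kb.

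The 3′ part of Dmd held few peaks. Past 84062700 there were no peaks for 392 kb, then 3 from 84454351 to 84454950 (600 bp), from 84596701 to 84597150 and from 84745801 to 84746250 (450 bp each). A second empty stretch of 383 kb contained the 3′ annotated start. The last peak, of 300 bp from 85128901 to 85129200, lay 75.8 kb before the end of the record. The first peak past the gene, from 85215601 to 85216050, was 10.6 kb beyond its end, and the last one ahead of it, from 82714501 to 82714800, was 99.9 kb upstream. These were the peaks just outside the set.

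**Figure D1:**
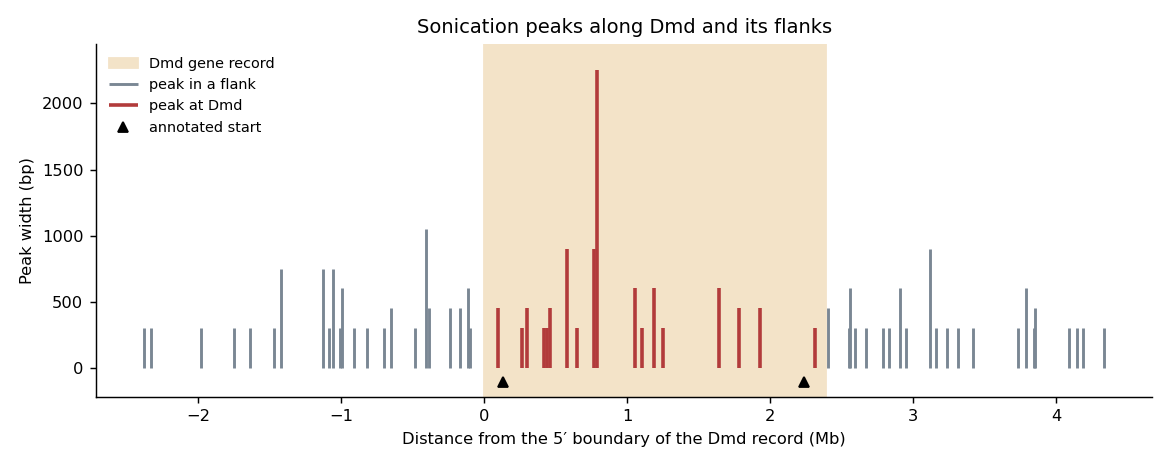
Each vertical line is 1 sonication peak, placed by its distance in Mb from the 5′ boundary of the Dmd record and drawn as high as the peak is wide in bp. The shaded span is the gene, triangles mark the 2 annotated starts, and grey lines are the 45 peaks of the flanks, which stay at or below 1050 bp while 1 peak in Dmd reaches 2250 bp.

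Counted by midpoint, 13 of the 18 peaks lay in the first 1.20 Mb of the body and 5 in the last 1.20 Mb, which is 10.9 against 4.18 peaks per Mb. In 5 equal stretches of 0.478 Mb from 5′ to 3′, the counts were 6, 4, 4, 2 and 2. Peak bases fell more steeply, from 6.78 kb per Mb in the first 1.20 Mb to 1.76 kb per Mb in the last. The flanks were uneven as well. The flank of the same length upstream had 7 peaks in its first 1.20 Mb and 16 in its last, and the flank downstream had 14 and 8. These divisions were made after the positions had been seen.

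**Figure D2:**
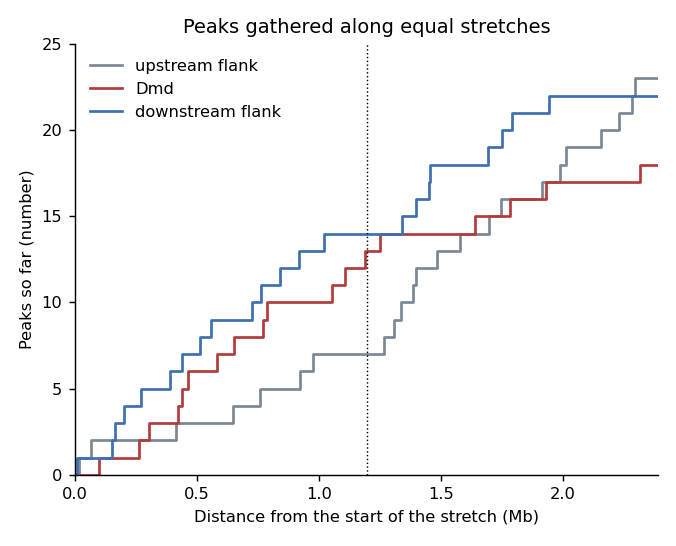
The lines count sonication peaks from the low-coordinate end of 3 adjoining stretches of 2.39 Mb, with distance in Mb on the horizontal axis and a dotted line at the middle. Dmd gathers 13 of its 18 peaks before the dotted line, the downstream flank 14 of 22 and the upstream flank 7 of 23.

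Spacing within Dmd was irregular. The 17 gaps between neighbouring peaks had a median of 119 kb and ranged from 17.6 to 392 kb (mean 130 kb ± 116, SD). Of these, 3 were under 25 kb and 9 were 100 kb or longer. The upstream flank had a median gap of 72.0 kb (22 gaps) and the downstream flank one of 72.5 kb (21 gaps), and neither had a gap of 380 kb or more, whereas Dmd had 2. Over the whole X the median gap was 149 kb and 123 of 548 gaps reached 380 kb, so empty stretches of that length were common on the chromosome. In the broad domain around Dmd, described below, the median gap was 119 kb, the same as in Dmd. There 31 of 192 gaps reached 380 kb, those of Dmd included.

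Peaks in Dmd were often wider than the minimum. The list has steps of 150 bp and a smallest width of 300 bp, which 7 of the 18 had; 5 were 450 bp, 3 were 600 bp, 2 were 900 bp and 1 was 2250 bp. Thus 61.1% exceeded 300 bp, compared with 43.5% of the 23 upstream and 27.3% of the 22 downstream. On the X without Dmd, flanks included, 41.2% of 531 peaks did. The mean width at Dmd was 567 bp ± 462 (SD, 18 peaks), and 468 bp ± 198 (SD, 17 peaks) without the widest. In the flanks together it was 413 bp ± 187 (SD, 45 peaks). On the X without Dmd, flanks included, it was 407 bp ± 156 (SD, 531 peaks).

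**Figure D3:**
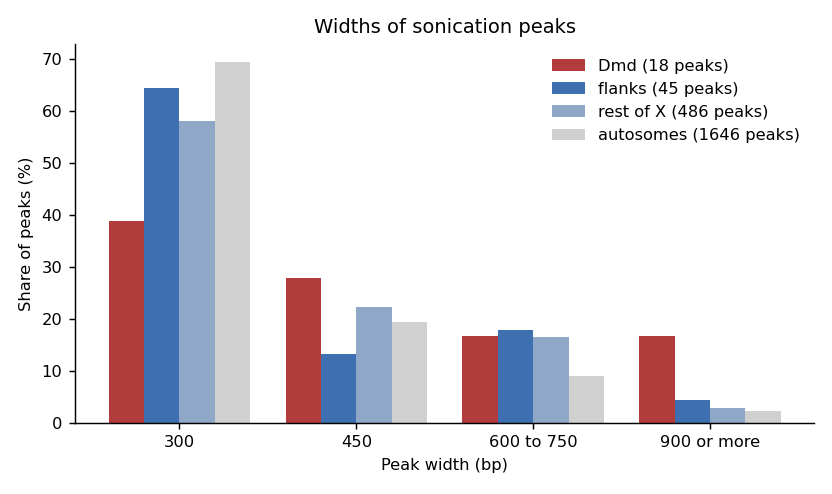
Bars give the share of sonication peaks, in percent, in each of 4 width classes for Dmd, its 2 flanks, the rest of the X and the autosomes. In Dmd 38.9% of peaks have the minimum width and 16.7% are 900 bp or wider, compared with 64.4% and 4.44% in the flanks.

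Counting every peak of the list, Dmd had fewer per Mb than the stretch of its own length on either side, but this order depended on how peaks were counted. With 5 kb on each side it had 7.50 peaks per Mb, while the 2.39 Mb upstream had 23 peaks, or 9.62 per Mb, and the 2.39 Mb downstream had 22, or 9.20 per Mb. The ratio of Dmd to both flanks was 0.797. Among peaks wider than 300 bp it was 1.37, from 11 at Dmd and 16 in the flanks. With neighbours up to 100 kb apart merged it was 1.17, from 10 and 17. By bases in peaks there were 4.25 kb per Mb in Dmd and 3.89 in the flanks, a ratio of 1.09. With flanks of 5 Mb on each side the ratio by number was 1.04, and with flanks of 1 Mb it was 0.600.

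The flanks differ from Dmd in gene content. The upstream one is nearly empty of coding genes: it held 2 coding records and 13 pseudogenes, and 0 of its 23 peaks overlapped a coding gene. The nearest coding gene on that side, 4930595M18Rik, lay 1357 kb from Dmd and had no peak within 5 kb. Downstream there were 8 coding records, and 7 of the 22 peaks overlapped one. Fthl17a, a ferritin heavy chain-like gene 44.6 kb past Dmd, had 0 peaks. Tab3, which encodes an adaptor of TAK1 kinase signalling, had 1, Gk, the glycerol kinase gene, had 2, and Samt3 had 1. Il1rapl1, a synaptic adhesion gene that begins 1536 kb beyond Dmd and continues past the flank, had 8 in its whole length. Nr0b1, the gene of the nuclear receptor DAX1, had 0, with the nearest peak 34.7 kb away.

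Dmd lies within the longest and highest-scoring of the 11 broad domains in the authors' deposited domain list, with 27.9 Mb of it before the gene and 9.67 Mb after. This domain runs from 54945001 to 94875000 and held 193 sonication peaks. Without Dmd its density was 4.66 per Mb, so the gene had 1.61 times as many peaks per Mb. Against the X without Dmd, at 3.21 per Mb, the ratio was 2.33, and against the autosomes, at 0.685 per Mb, it was 10.9.

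For a view of the whole chromosome, the X was divided into 69 windows as long as Dmd with its 5 kb, laid end to end outward from the gene. These windows held a median of 6 peaks and between 0 and 25. The Dmd window, with 18, was passed by 6 windows and equalled by 1, and 61 had fewer. Both adjoining windows were among the 6, and the highest lay 7.20 Mb upstream. By bases in peaks, Dmd and the window upstream had 10200 each, the window downstream had 8400, and 1 of the 69 exceeded Dmd. The 48 windows with their centre in a broad domain had a median of 8.5 peaks, and the 21 others one of 4, with at most 9. The domain list names no library, so domains and peaks cannot be taken as independent measures.

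**Figure D4:**
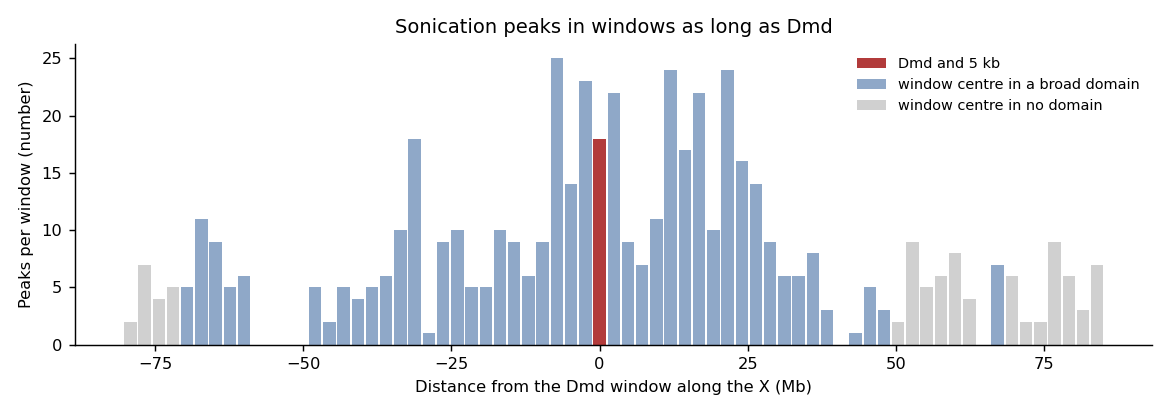
Bars count sonication peaks in 69 windows of equal length along the X, placed by their distance in Mb from the Dmd window, which is red. Windows with their centre in a broad domain are blue and others grey; Dmd, at 18, stands between neighbours of 23 and 22.

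Among the 64 genes of 1 Mb or more, 68.8% had a sonication peak in the gene or within 5 kb, and Dmd ranked first by density as well as by number. Il1rapl1 came closest, at 5.78 peaks per Mb (8 peaks). Gpc5, an autosomal glypican gene, had 3.47 (5 peaks), and Il1rapl2, a relative of Il1rapl1 further along the X, had 3.10 (4 peaks). By the difference in peaks per Mb these 3 were the most like Dmd of the 63 other long genes. Nrxn3, a neurexin gene, followed with 3.08 (5 peaks). The remaining X-linked gene of this length, Frmpd4, which encodes a scaffold protein of synapses, had 2.69 (3 peaks).

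All 4 X-linked long genes were above the autosomal median of 0.782 peaks per Mb, and 20 of the 60 autosomal ones had 0 peaks. Having at least 1 sonication peak within 5 kb was more frequent among longer genes. The share was 3.38% of coding genes, 16.4% of coding genes of 100 kb or more and 68.8% of genes of 1 Mb or more. The number of peaks stayed low in the longest autosomal records. The 6 of 2 Mb or more, among them the neuronal adhesion genes Cntnap2, Lsamp and Ptprd and the immunoglobulin loci Igh and Igk, had between 0 and 2. Among shorter X-linked genes, however, Dmd did not stand first. Of the 113 coding genes of 100 kb or more on the X it ranked 31 by density, and Efhc2 led with 25.3 peaks per Mb (5 peaks in a gene of 188 kb). Where a gene of about 100 kb has 1 peak its density is already above that of Dmd, so this order is coarse. The median of these 113 genes was 3.83 per Mb, and 47 had no peak. Of the 113, 69 were in a broad domain, as Dmd is. Their median was 5.78 per Mb, 20 had no peak, and Dmd ranked 25 among them.

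**Figure D5:**
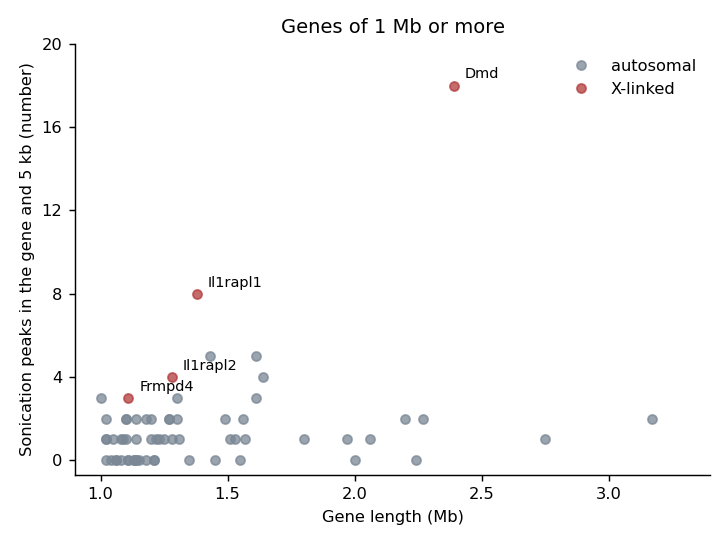
Each point is a gene of 1 Mb or more, with its length in Mb on the horizontal axis and its number of sonication peaks, within 5 kb included, on the vertical axis. The 4 X-linked genes are red and named; Dmd reaches 18 peaks, while no autosomal gene exceeds 5, including the 2 immunoglobulin loci longer than Dmd.

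The MNase list had no peak at Dmd. It was not used in choosing the gene. There was also none in either flank, and the nearest MNase peaks on the X lay 6.22 Mb before the gene, from 76598701 to 76599300, and 4.37 Mb after it, from 89570101 to 89570400. The whole X had 10, or 0.0596 per Mb, a density that would put 0.143 peaks in a window as long as Dmd, so a count of 0 does not set the gene apart from its chromosome. At the autosomal density of 1.18 per Mb the same window would hold 2.82.

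Of the genes of 1 Mb or more, 60.9% had an MNase peak. Each of the 4 X-linked ones had 0, and so did 21 of the 60 autosomal ones (35.0%). Dlg2, which encodes a postsynaptic scaffold, had 10 MNase peaks and 1 sonication peak. The non-coding host transcript Snhg14 had 6 and 2. The MNase experiment included male cells and the sonication experiment did not, so the way of cutting chromatin and the sex of the lines cannot be told apart as sources of the 18 and 0 peaks at Dmd.

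The partners of dystrophin were looked at as a list of 31 genes. Of these, 5 had a sonication peak within 5 kb (16.1%), where 3.38% of all 21775 coding genes did. With 50 kb on each side, 8 of the 31 had one, where 7.84% of coding genes did. The list is rich in long genes, with a median length of 59.1 kb against 17.2 kb for all coding genes. Among the 11 members of 100 kb or more, 4 had a peak (36.4%), where 16.4% of all coding genes of that length did. These 11 had a median length of 494 kb, and Sgcd and Sgcz exceed 1 Mb, so the minimum of 100 kb does not match lengths. Of genes of 1 Mb or more, 68.8% had a sonication peak. No test was made, and the number of peaks per gene had a median of 0 in the list and among all coding genes.

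Taken by role, the closest relatives of dystrophin had none: Utrn, which encodes utrophin, and Drp2, also on the X, had 0 sonication and 0 MNase peaks. Dag1, the gene of dystroglycan, and the dystrobrevin genes Dtna and Dtnb likewise had 0 in both lists. Lama2, the laminin chain that dystroglycan binds, had 2 sonication peaks, from 27107401 to 27107700 and from 27491701 to 27492000 on chromosome 10. None of the 6 listed genes for the glycosylation of dystroglycan had a peak in either list.

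Among the 7 sarcoglycan and sarcospan genes, Sgce, which is imprinted, had 1 sonication peak from 4695451 to 4695750 on chromosome 6, and Sgcz had 1 from 38479651 to 38479950 on chromosome 8. Sgcd, which is over 1 Mb long, had 0. Of the 5 syntrophin genes, which encode adaptors bound to dystrophin, Sntb1 had 1 on chromosome 15 from 55772401 to 55772700. Ank2, the gene of an ankyrin that binds dystrophin, had 1 on chromosome 3 from 127116301 to 127116600. All 6 sonication peaks at partner genes had the smallest width, 300 bp, unlike 11 of the 18 in Dmd. These 6 are autosomal, and 69.5% of the 1646 autosomal sonication peaks had that width.

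In the MNase list 3 of the 31 partners had a peak (9.68%), where 5.28% of all coding genes did. All 3 were among the 11 partners of 100 kb or more (27.3%), where 18.0% of all coding genes of that length had one. As above, this minimum does not match lengths, and no test was made. The 3 were Sgcz with 2 peaks, and Ank2 and Sntg1, a syntrophin gene, with 1 each. Sgcz and Ank2, of 1144 and 579 kb, thus had peaks in both lists, at different positions. Of all 21775 coding genes, 163 had peaks in both. Dmd had them in the sonication list alone, as did each X-linked gene of 1 Mb or more, on a chromosome with 10 MNase peaks.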

How the data were processed

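ChIP-seq of Smchd1-GFP was summarised by the authors in 3 tables: a peak list per experiment and a list of broad domains. Per the submitters' processing notes, bcl2fastq, Bowtie 0.12.9, MACS2 and mm10 were used, without a role or order. Peak starts and ends (bp) were the only values used, since the value column was empty. The authors deposited a score per domain, whose scale no source states, and it only ranked domains. Domain boundaries were multiples of 55 kb. Each list was treated as pooled over its experiment.

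Genes were 49599 RefSeq records (GRCm38.p6) outside the first 3 Mb of a chromosome; the table has no exons. A peak counted for a gene if it overlapped the gene or 5 kb on each side by at least 1 bp. Flanks began beyond these 5 kb. The gene, the partner list and the comparisons were chosen with earlier results of these data known. Named genes were the partners with a peak, flank coding genes with a peak, the nearest coding genes, X-linked long genes, the 5 densest long genes, the 3 nearest to Dmd in density and the 3 with most MNase peaks; partners without a peak, nested records, Nr0b1, Efhc2, Eda and long autosomal genes were named after their values were seen. Some genes the rule or the list selects are not reported here. Counting was tested on simulated data. Python 3.11.15 with pandas 2.3.3 was used.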

Additional observations from a re-analysis of the deposited data

How the results depend on the processing

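Of 33 alternatives to 9 results, 29 left the value within 1.5 times, 1 SD or, for ratios, the 95% Wilson interval of the share of peaks (counting error only). The exceptions were as follows. With peaks of the smallest width left out, Dmd had 11 sonication peaks, and its density was 1.37 times that of the flanks in place of 0.797. Merging neighbours up to 100 kb apart left 10 peaks at Dmd. With 50 kb on each side, 8 of the 31 partner genes had a sonication peak in place of 5, where the share of all coding genes with one was 7.84% in place of 3.38%. The ratio to the flanks also passed 1 with flanks of 5 Mb (1.04), with merging up to 100 kb (1.17) and by bases (1.09), so its direction depends on the setting. Dmd ranked first by density among long genes under each of the 7 alternatives run, genes of 500 kb or more (235 genes) included. The ranks among coding and among X-linked long genes were fixed by the main rank, since these are parts of the same set. Because Dmd was chosen by its count in this list, none of these ranks is independent of the choice. MNase peaks at Dmd numbered 0 under all 4 alternatives run, which are among the 29, but these could not differ. The gene body, the wider peaks and the midpoints are counted within a window that already had 0. The nearest MNase peak, 4.37 Mb away, is far outside 50 kb. Other alternatives among the 29 could not move either. The shortest gap at Dmd was 17.6 kb, so merging up to 1 or 10 kb could not change its count or lower its rank. In the flanks the shortest gap was 3.0 kb, so merging up to 1 kb could not change the ratio to them. Leaving out 1 of 18 peaks cannot shift a mean by 1 SD. Peaks at Dmd were at most 2250 bp wide, so measuring between midpoints could not shift the median gap by 116 kb, its SD. No paired analysis was possible because the lists hold no values per library, and leaving out replicates was not run for the same reason. Depth was unknown.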
